A study of Mus musculus with 10 samples.

Results

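The 39 genes of mitochondrial and peroxisomal beta oxidation were examined in RNA-seq libraries of inguinal white adipose tissue (iWAT), the subcutaneous fat pad of the groin, from 10 male C57BL/6 mice, 1 library per mouse. The genes were chosen by name from 33120 genes with an exon length, and 21 of them act in mitochondria, 14 in peroxisomes and 4 in both organelles or in the cytosol. The F0 mice were fed a control diet (CD, 2 mice) or a low-protein diet (LPD, 2 mice) from weaning and were studied at 10 to 12 weeks of age. The F1 mice were 5-week-old sons of CD-fed fathers (3 mice) or of LPD-fed fathers (pLPD offspring, 3 mice). The sons within a group had different mothers, and both the mothers and the sons ate the CD. The labels name no engineered allele. Generation, age and the set of libraries coincide, so these cannot be told apart in any difference between F0 and F1.

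Beta oxidation shortens a fatty acyl-CoA from its carboxyl end in repeated cycles of dehydrogenation, hydration, a further dehydrogenation and thiolytic cleavage. Mitochondria burn long-chain fatty acids, which the carnitine shuttle brings in, and medium- and short-chain ones, which can largely enter without it, and they pass the electrons of the acyl-CoA dehydrogenases through electron transfer flavoprotein to the respiratory chain. Peroxisomes handle very-long-chain, branched and dicarboxylic acids, and their first step is an oxidase that makes hydrogen peroxide. White adipocytes mainly store fat, whereas the beige adipocytes that can appear in iWAT have many mitochondria and burn it. The nuclear receptor PPARα, paired with RXR, is known to activate many of these genes through direct repeats of AGGTCA spaced by a single base.

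Between 6351075 and 10044546 reads per library lay on exons, and 3 reads, taken as the lowest level that can be told from 0, corresponded to 0.299 to 0.472 counts per 1000000 (CPM), a bound that covers counting error only. Introns held 36.0% to 37.9% of the reads on protein-coding genes in 7 libraries and 40.7% to 48.4% in the 3 of pLPD offspring. The white adipocyte markers, 12 genes with Adipoq among them, summed to between 28010 and 44072 CPM, so the label of the tissue had its markers in all 10 libraries. Skeletal muscle markers were also present, most of all in the F0 CD mice, and are given beside the F0 results.

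Reference sequence upstream of 4 genes of the pathway is shown, since 2 of them lie head to head and the others hold the motif described after them. Hadha and Hadhb, which encode the paired subunits of the trifunctional protein, are transcribed in opposite directions from chromosome 5. Their starts are 85 bases apart in the gene coordinates of the deposited data (mm10) and 272 bases apart by the RefSeq windows, which place the start of Hadha further inside the gene. The 85 bases of the deposited coordinates, chr5:30155163-30155247, are given from RefSeq GRCm38.p6 on the plus strand, from the side of Hadha to that of Hadhb, with a GC content of 69.4%.

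Hadha-Hadhb gap: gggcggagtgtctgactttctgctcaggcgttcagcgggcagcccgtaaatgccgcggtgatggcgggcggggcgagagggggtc

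The 250 bases before the RefSeq starts of Acadm and Acadvl, the medium-chain and very-long-chain acyl-CoA dehydrogenases, are chr3:153944644-153944893 and chr11:70015429-70015678, both on the minus strand, and are given 5′ to 3′ along the gene with every AGGTCA, on either strand, in capitals (on the opposite strand it reads TGACCT).

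Acadm upstream: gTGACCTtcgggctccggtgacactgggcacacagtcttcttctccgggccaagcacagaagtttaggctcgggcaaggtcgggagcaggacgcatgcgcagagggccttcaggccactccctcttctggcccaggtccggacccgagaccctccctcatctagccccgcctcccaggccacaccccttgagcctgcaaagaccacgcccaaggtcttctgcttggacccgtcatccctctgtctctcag

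Acadvl upstream: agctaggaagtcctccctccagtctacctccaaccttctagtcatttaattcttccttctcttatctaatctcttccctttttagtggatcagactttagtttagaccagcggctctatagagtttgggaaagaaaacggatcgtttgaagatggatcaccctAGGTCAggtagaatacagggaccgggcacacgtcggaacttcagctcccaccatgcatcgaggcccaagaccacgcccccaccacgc

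AGGTCA was searched on both strands in a window from 250 bases before to 50 bases after each start. Of the 39 genes, 33 had a window, and 6 of these held it (Acadm, Acadvl, Acot4, Echs1, Phyh and Scp2) beside 16.3% of all 32851 windows. Of the genes called higher in F0 LPD mice in the results below, 7 had a window, and 1 of the 7, Acadm, held AGGTCA. The repeat AGGTCANAGGTCA, where N is any base, was in none of the members' windows and in 0.0396% of all windows, and the looser AGGNCANAGGNCA was in none of the members' windows and in 0.381% of all. The extended site TCAAGGTCA, which contains AGGTCA, was in none of the members' windows and in 0.423% of all. A match here is a description of letters and not of binding, and the absence of a match holds for these windows only.

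Levels per exon length were compared as RPKM (reads per kilobase of exon and 1000000 reads, as deposited). In F0 CD mice the genes spanned 0.161 to 72.1 RPKM. The long-chain acyl-CoA dehydrogenase Acadl had the highest mean (72.1 RPKM). Next was Scp2 (70.1 RPKM), a gene whose products include the peroxisomal thiolase of branched chains. Then came Abcd2, which imports very-long-chain acyl-CoA into peroxisomes (62.5 RPKM). Etfb, the beta subunit of electron transfer flavoprotein (61.7 RPKM), and Acaa2, the mitochondrial thiolase (53.8 RPKM), followed. The cytosolic thioesterase Acot1 was lowest, with only 6 to 29 reads per library. In F1 CD mice Acadl was again first (129 RPKM), and Etfb, Acaa2 and the very-long-chain dehydrogenase Acadvl followed at 127, 117 and 111 RPKM, while Abcd2 was 13th at 36.4 RPKM. For some genes only a part of the exon reads matched a single place in the genome: 24.6% for Acot4, 27.3% for Etfb, 30.8% for Scp2, 47.1% for Acaa1a, 49.4% for Hadhb, 51.6% for Acadsb and 74.4% for Acaa1b, so their levels are uncertain. The strand setting of the counting is not given in the sources used here, and Echs1, Acaa1a, Acot8 and Acadvl overlap a gene of the opposite strand with a mean of 153 reads or more per library, while Scp2 overlaps Podn on its own strand.

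**Figure D1:**
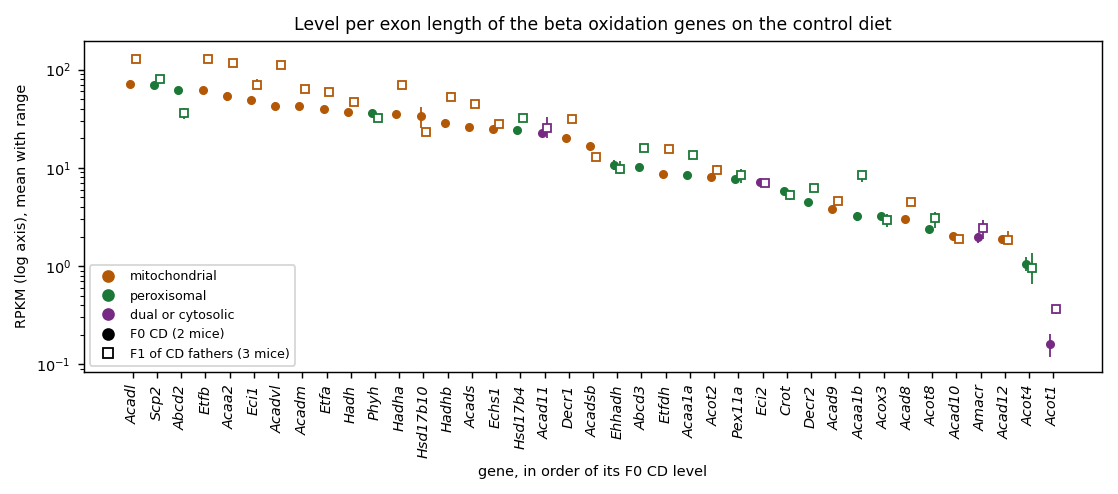
Mean RPKM on a log axis for each of the 39 genes in F0 CD mice (filled circles, 2 mice) and in F1 sons of CD-fed fathers (open squares, 3 mice), with lines from the lowest to the highest mouse and colours for mitochondrial, peroxisomal and dual or cytosolic genes. Acadl leads in both groups at 72.1 and 129 RPKM, most mitochondrial genes sit higher in F1, and Abcd2 sits lower.

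To examine the effect of the LPD on beta oxidation in the mice that ate it, F0 LPD mice were compared with F0 CD mice. All 39 genes passed the filter on low counts, and 10 of them were higher in F0 LPD mice at an adjusted p under 0.05 by the quasi-likelihood F test of edgeR, with Benjamini-Hochberg adjustment over all 14581 genes tested. The share over all those genes was 1.18%. None was lower, where the share of all genes was 1.32%. The 10 were Acadl, Acadm, Hadha, Hadhb, Acaa2, Decr1 and Etfdh in mitochondria, Ehhadh and Hsd17b4 in peroxisomes, and Acad11, with log2 fold changes between 0.50 and 0.90. At an unadjusted p under 0.05, 20 genes were higher, beside 7.53% of all genes, and 1, Hsd17b10, was lower, beside 8.20%. The mitochondrial genes had a median log2 fold change of 0.35 with 17 of 21 positive, and the peroxisomal genes had a median of 0.17 with 10 of 14 positive, beside a median of 0.00 and 50.1% positive over all genes tested. Every LPD mouse was above every CD mouse in 26 of the 39 genes, beside 23.0% of all genes, and below in 5, beside 23.5%. By organelle, 17 of 21 mitochondrial and 7 of 14 peroxisomal genes were above in this way. In bulk tissue, a change in the number of cells of a type and in the RNA per cell cannot be told apart.

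When 1 mouse was left out and the remaining 3 F0 libraries were fitted alone by edgeR, 5 genes were higher without F0 CD mouse 1, 2 (Ehhadh and Acad11) without F0 CD mouse 2, 6 without F0 LPD mouse 1 and 8 without F0 LPD mouse 2. With all 4 mice but with the F1 groups in the same fit, 6 were higher, and Hadha, Decr1, Etfdh and Ehhadh did not pass. A limma-trend test of log2(RPKM + 0.1) called none of the 39 genes, although 17 were higher at an unadjusted p under 0.05, beside 4.90% of all genes, and 0 were lower, beside 10.6%.

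**Figure D2:**
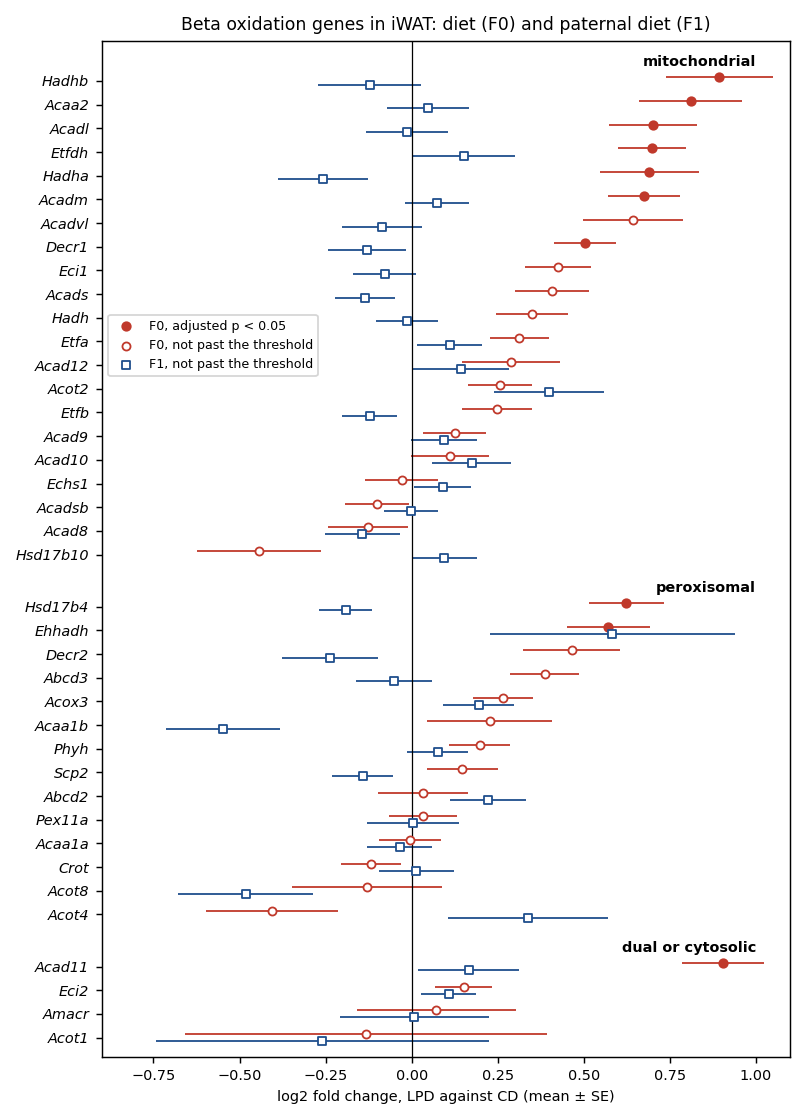
Log2 fold change with its standard error (edgeR) for each gene, grouped by organelle, for LPD against CD in F0 (red circles) and pLPD against CD offspring in F1 (blue squares), with filled symbols for an adjusted p under 0.05. In F0, 30 of 39 genes lie right of 0 and 10 are filled, whereas in F1 20 lie right of 0, 19 lie left and none is filled.

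The acyl-CoA dehydrogenases that open each cycle differ in the chain length they accept. Acadl, for long chains, was at 303 and 245 CPM in the F0 CD mice and at 469 and 421 CPM in the F0 LPD mice. The groups did not overlap, and the log2 fold change was 0.70 ± 0.13 (SE, adjusted p = 0.0304, edgeR). Acadm, for medium chains, was at 331 and 302 CPM in CD mice and at 503 and 507 CPM in LPD mice. It rose by 0.67 ± 0.10 on the log2 scale (adjusted p = 0.0186, edgeR), and the LPD mice differed from each other less than the CD mice did. Acadvl, for very long chains, was at 240 and 195 CPM in CD mice and at 382 and 298 CPM in LPD mice. Its log2 fold change of 0.64 ± 0.15 was as large as that of its relatives but did not pass the test in edgeR (adjusted p = 0.0587), with a 95% interval of 0.31 to 0.97. DESeq2 placed it past the threshold (adjusted p = 0.00278). Acads, for short chains, had a log2 fold change of 0.41 ± 0.11 (adjusted p = 0.0935, edgeR).

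The dehydrogenases of branched chains and the less studied relatives changed less. Acadsb and Acad8, which serve the breakdown of isoleucine and valine, had log2 fold changes of -0.10 and -0.13 with every LPD mouse below every CD mouse, by small margins. Acad9, which also helps to assemble complex I, Acad10 and Acad12 had log2 fold changes of 0.12, 0.11 and 0.29. In each of them every LPD mouse was above every CD mouse. None of these 5 genes had an unadjusted p under 0.05.

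Hadha and Hadhb encode the trifunctional protein, which carries out the last 3 steps of the cycle on long chains at the inner mitochondrial membrane. Hadha was at 402 and 333 CPM in CD mice and at 660 and 526 CPM in LPD mice. Hadhb was at 400 and 313 CPM in CD mice and at 736 and 588 CPM in LPD mice. For both genes the LPD mice were above the CD mice, and mouse 1 was the higher of its group in all 4 pairs of values. The log2 fold change was 0.69 ± 0.14 for Hadha (adjusted p = 0.0464, edgeR). That of Hadhb was 0.89 ± 0.16 (adjusted p = 0.0249, edgeR), and with uniquely matching reads alone it was 0.86 (adjusted p = 0.0177, edgeR). With the reads on introns added, Hadha no longer passed (adjusted p = 0.0523, edgeR) at a log2 fold change of 0.68. Nor did Hadha pass with all 4 groups in one edgeR fit (adjusted p = 0.0747) or with limma-trend (adjusted p = 0.0916). With each mouse left out, its log2 fold change lay between 0.52 and 0.84.

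Acaa2, the thiolase that cleaves medium-length chains, was at 172 and 137 CPM in CD mice and at 305 and 235 CPM in LPD mice. It rose by 0.81 ± 0.15 on the log2 scale (adjusted p = 0.0313, edgeR), and the 2 groups were separate. The soluble enzymes that act on short chains behaved unevenly. Hadh, the 3-hydroxyacyl-CoA dehydrogenase, had a log2 fold change of 0.35 ± 0.10 (adjusted p = 0.131, edgeR) and Echs1, the enoyl-CoA hydratase, one of -0.03 ± 0.10. Hsd17b10, a dehydrogenase of short and branched chains that is also a subunit of mitochondrial RNase P, was at 63.7 and 101 CPM in CD mice and at 62.5 and 58.6 CPM in LPD mice. Its log2 fold change of -0.44 ± 0.18 (adjusted p = 0.277, edgeR) rested on CD mouse 2, since CD mouse 1 was nearly level with LPD mouse 1.

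Decr1, the reductase that lets unsaturated chains through the cycle, was at 154 and 144 CPM in CD mice and at 214 and 208 CPM in LPD mice. The groups did not overlap, and it rose by 0.50 ± 0.09 on the log2 scale (adjusted p = 0.0287, edgeR). It did not pass with all 4 groups in one edgeR fit (adjusted p = 0.0915), with limma-trend (adjusted p = 0.0731) or with any 1 mouse left out (adjusted p from 0.0562 to 0.190, edgeR). Eci1, the isomerase for unsaturated chains, had a log2 fold change of 0.42 ± 0.09 (adjusted p = 0.0572, edgeR). Etfdh, which hands the electrons of the dehydrogenases to ubiquinone, was at 118 and 102 CPM in CD mice and at 181 and 176 CPM in LPD mice. Its rise of 0.70 ± 0.10 on the log2 scale (adjusted p = 0.0136, edgeR) was larger than the log2 fold changes of Etfa (0.31 ± 0.09) and Etfb (0.25 ± 0.10), the subunits that feed it, neither of which passed the test. Etfdh did not pass with all 4 groups in one edgeR fit (adjusted p = 0.0830) or with limma-trend (adjusted p = 0.0537). With each mouse left out, its log2 fold change lay between 0.60 and 0.81. Acot2, the mitochondrial thioesterase, had a log2 fold change of 0.26 ± 0.09 (adjusted p = 0.221, edgeR).

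Among the peroxisomal genes, the multifunctional enzymes of the middle steps were the ones that rose. Hsd17b4, the D-bifunctional protein for branched and very long chains, was at 160 and 151 CPM in CD mice and at 219 and 261 CPM in LPD mice. The lowest LPD mouse was well above the highest CD mouse, and the log2 fold change was 0.62 ± 0.11 (adjusted p = 0.0257, edgeR). Hsd17b4 did not pass with limma-trend (adjusted p = 0.0866), and with each mouse left out its log2 fold change lay between 0.49 and 0.74. Ehhadh, the L-bifunctional protein for dicarboxylic and straight chains, was at 55.0 and 67.4 CPM in CD mice and at 83.8 and 98.4 CPM in LPD mice. It rose by 0.57 ± 0.12 on the log2 scale (adjusted p = 0.0487, edgeR). With introns counted, the log2 fold change of Ehhadh was 0.10 (adjusted p = 0.668, edgeR). With DESeq2's size factors in place of TMM, Ehhadh lay just outside the threshold (adjusted p = 0.0506, edgeR). It did not pass with all 4 groups in one edgeR fit (adjusted p = 0.701) or with limma-trend (adjusted p = 0.153). With each mouse left out, its log2 fold change lay between 0.43 and 0.73.

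The other peroxisomal genes did not pass the test. The reductase Decr2 (0.47 ± 0.14), the importer Abcd3 (0.39 ± 0.10) and the oxidase Acox3 (0.26 ± 0.09) had positive log2 fold changes with unadjusted p under 0.05 in edgeR and no overlap between diets. Scp2 and Phyh, the enzyme of alpha oxidation, were at 0.15 and 0.20. The importer Abcd2, the proliferation factor Pex11a and the thiolase Acaa1a had log2 fold changes between -0.01 and 0.03, and their diets overlapped. Acot4 and Acot8, thioesterases that end chain shortening, and Crot, which makes carnitine esters for export, were at -0.41, -0.13 and -0.12. Acaa1b was at 0.23 ± 0.18, from 107 to 134 reads per library.

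Acad11, a dehydrogenase found in both organelles that acts on 4-hydroxy fatty acids, was at 184 and 182 CPM in CD mice and at 306 and 379 CPM in LPD mice. Its log2 fold change of 0.90 ± 0.12 (adjusted p = 0.0110, edgeR) was the highest of the 39 genes in this fit. It stayed past the threshold with each mouse left out, and of 9 alternatives only limma-trend on log2 RPKM placed it outside (adjusted p = 0.0537). Eci2 and Amacr, an isomerase and a racemase of both organelles, had log2 fold changes of 0.15 and 0.07, and Acot1 was too shallow for a statement.

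**Figure D3:**
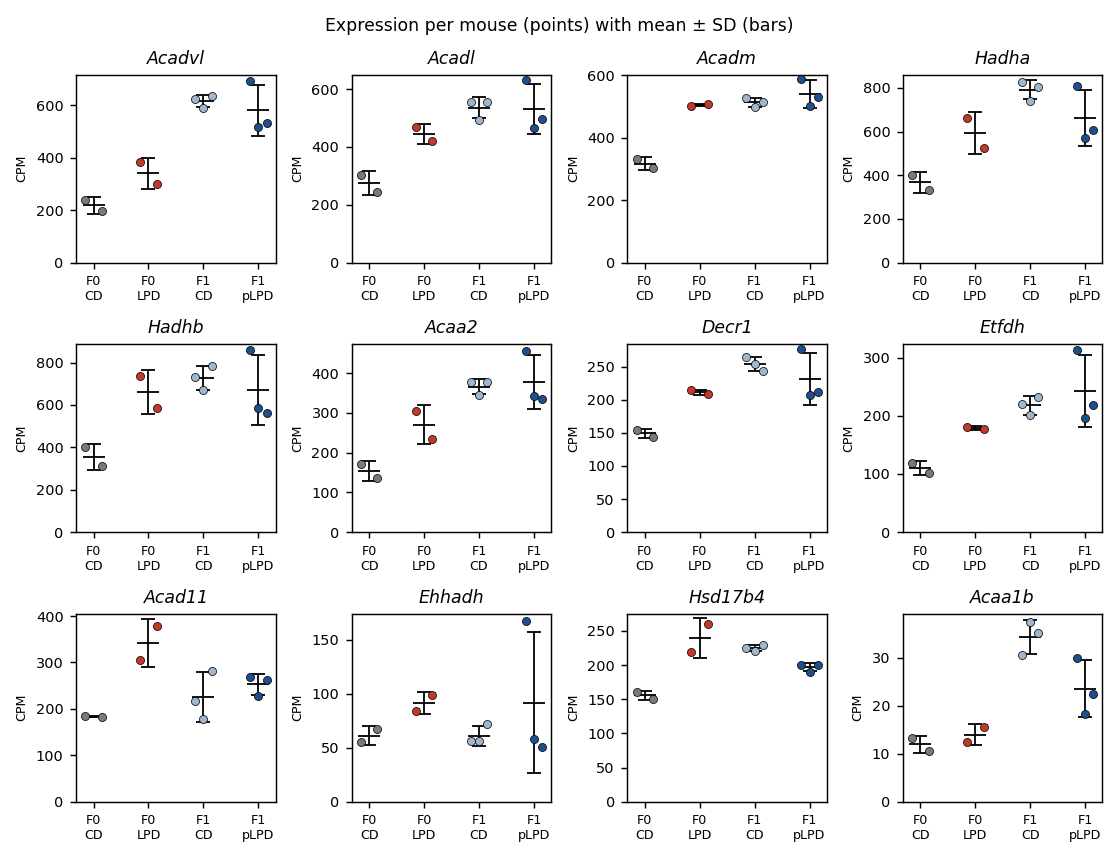
CPM in each mouse (points) with the group mean and SD (bars) for 12 genes in F0 CD and LPD mice and in F1 offspring of CD and LPD fathers, each generation normalized alone, on linear axes that start at 0. The panels are the 10 genes called higher in F0 with Acadvl and Acaa1b. The F0 LPD mice lie above the CD mice in all panels but Acaa1b, which follows largely from that choice. Over all 39 genes this held in 26, beside 23.0% of all genes tested. In F1 pLPD mouse 1 is far above the rest for Ehhadh at 167 CPM.

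The lists of neighbouring steps were read beside these genes. Of all genes tested in F0, 1.18% rose and 1.32% fell at an adjusted p under 0.05. In F0 LPD mice 3 of 6 genes of the carnitine shuttle rose, namely Slc25a20, the carnitine-acylcarnitine carrier (log2 fold change 1.06 ± 0.12, adjusted p = 0.00627, edgeR), Cpt1b (1.60 ± 0.27, adjusted p = 0.0228, edgeR) and Cpt1a (0.70 ± 0.13, adjusted p = 0.0334, edgeR), the muscle-type and liver-type forms of the gate enzyme. Slc25a20 was at 52.6 and 40.7 CPM in CD mice and at 97.7 and 96.7 CPM in LPD mice. Of 6 PPAR and PGC-1 regulators, Ppara was the one that rose, from 14.1 and 21.2 CPM to 43.4 and 33.5 CPM (log2 fold change 1.12 ± 0.19, adjusted p = 0.0249, edgeR). The regulators as a list did not rise: 2 had positive and 4 negative log2 fold changes, with a median of -0.02. At an unadjusted p under 0.05 in edgeR, 1 regulator was lower, beside 8.20% of all genes.

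Of 7 acyl-CoA synthetases tested, Acsl5 and Slc27a2 rose, and of 11 further peroxisomal enzymes tested, Hacl1, the lyase of alpha oxidation, did. In addition, 2 of 17 genes of the tricarboxylic acid cycle (Idh3a and Sucla2) rose. None of 15 peroxins, which build the peroxisome, and none of 24 respiratory chain genes passed the test in edgeR. At an unadjusted p under 0.05, 3 respiratory chain genes and no peroxin were higher, and the median log2 fold changes of these lists were 0.10 and 0.04. The tricarboxylic acid cycle genes had a median of 0.22, and 7 were higher at an unadjusted p under 0.05, beside 7.53% of all genes. Log2 fold changes were positive in 15 of 17 of these, 20 of 24 respiratory chain genes and 9 of 15 peroxins, beside 50.1% of all genes.

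Markers of other cells moved with the F0 diet. Of 11 brown and beige adipocyte markers tested, 8 rose, beside 1.18% of all genes. Among the 8 was Cpt1b, which the carnitine shuttle list also holds. With all libraries normalized together, the 12 markers on the brown and beige list summed to 460 and 263 CPM in CD mice and to 1122 and 957 CPM in LPD mice. Fabp3 had the smallest p of that list (log2 fold change 1.62 ± 0.14, adjusted p = 0.00223, edgeR), and Ucp1 went from 58.3 and 13.5 CPM to 238 and 289 CPM. Of 18 skeletal muscle markers, 11 fell, beside 1.32% of all genes. The sum of the 18 was 1896 and 2946 CPM in CD mice and 1229 and 884 CPM in LPD mice. Myh7, Myh1, Myh2, Myl2 and Mb were the markers with the smallest p, and Myh7 was at 17.5 and 22.4 CPM in CD mice and at 0.525 and 0.233 CPM in LPD mice, the last value being below 3 reads. White adipocyte markers summed to 39651 and 44072 CPM in CD mice and to 32891 and 38280 CPM in LPD mice. As a list they did not fall: 7 of 12 had positive and 5 negative log2 fold changes, with a median of 0.02, beside 50.1% positive over all genes. At an unadjusted p under 0.05 in edgeR, 2 were higher and 4 lower, beside 7.53% and 8.20% of all genes. The mitochondrial members summed to 3681 and 3314 CPM and to 5257 and 4659 CPM in the same mice, and the peroxisomal members to 1784 and 1877 CPM and to 1977 and 2160 CPM. The part of beige adipocytes or of muscle in the higher beta oxidation values was not tested.

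**Figure D4:**
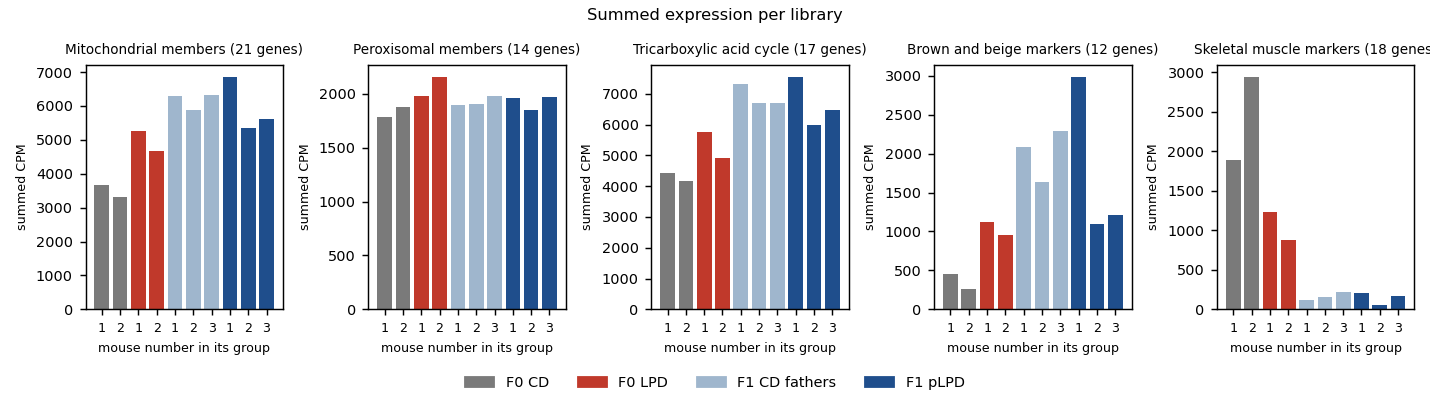
Summed CPM per library, all libraries normalized together, for the mitochondrial and peroxisomal members, the tricarboxylic acid cycle, the brown and beige markers and the skeletal muscle markers, with bars from 0 coloured by group. The mitochondrial sum runs from 3314 to 5257 CPM in F0 and from 5357 to 6864 CPM in F1, and pLPD mouse 1 has the highest brown and beige sum, 2988 CPM.

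Next, pLPD offspring were compared with the sons of CD-fed fathers, to see whether the pathway differed in sons that never ate the LPD. None of the 39 genes passed the test in either direction by edgeR or by DESeq2, beside 0.142% of all 14049 genes tested for higher and 1.02% for lower. At an unadjusted p under 0.05, edgeR placed 1 gene higher (Acot2), beside 6.57% of all genes, and 3 lower (Hsd17b4, Acaa1b and Acot8), beside 8.76%. The median log2 fold change was -0.00 for the mitochondrial and -0.02 for the peroxisomal genes, beside 0.01 for all genes. Every pLPD mouse was above every CD offspring in 1 gene (Eci2), beside 9.78% of all genes, and below in 5 (Etfb, Hsd17b4, Scp2, Acaa1b and Acot8), beside 10.3%.

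None of the 7 mitochondrial genes that rose in F0, nor Acadvl, passed the test between the paternal diets. Acaa2 was at 377, 344 and 379 CPM in CD offspring and at 457, 344 and 335 CPM in pLPD offspring, a log2 fold change of 0.05 ± 0.12. Acadvl was at 624, 589 and 634 CPM and at 691, 516 and 533 CPM, with a log2 fold change of -0.09 ± 0.12 and a 95% interval of -0.34 to 0.17. Hadha was at 827, 742 and 804 CPM and at 810, 569 and 606 CPM, with a log2 fold change of -0.26 ± 0.13 (adjusted p = 0.382, edgeR) and a 95% interval of -0.54 to 0.03, and 2 of the 3 pLPD mice were below all CD offspring. In these 3 genes pLPD mouse 1 was the highest of its group, and for Acaa2 and Acadvl it was the highest of all 6 mice. The remaining mitochondrial genes that had risen in F0, Acadl, Acadm, Hadhb, Decr1 and Etfdh, had log2 fold changes between -0.13 and 0.15, and their groups overlapped.

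Hsd17b4 was at 224, 221 and 229 CPM in CD offspring and at 201, 190 and 200 CPM in pLPD offspring. All pLPD mice were below all CD offspring, but the log2 fold change of -0.19 ± 0.08 did not pass the test (adjusted p = 0.268, edgeR). Acaa1b, a thiolase, was at 30.6, 37.4 and 35.2 CPM in CD offspring and at 30.1, 18.3 and 22.4 CPM in pLPD offspring. It had the lowest log2 fold change of the 39 genes in F1, -0.55 ± 0.17 (adjusted p = 0.145, edgeR), and the lowest CD offspring nearly touched the highest pLPD mouse. Acot8, from 49 to 105 reads per library, had a log2 fold change of -0.48 ± 0.20 (adjusted p = 0.273, edgeR).

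Ehhadh was at 55.9, 55.7 and 71.9 CPM in CD offspring and at 167, 57.6 and 50.4 CPM in pLPD offspring. A single mouse, pLPD mouse 1, thus set the log2 fold change of 0.58 ± 0.36 (adjusted p = 0.480, edgeR), and of the other 2 pLPD mice 1 lay within and 1 below the range of the CD offspring. The same mouse was the highest of the 6 in Etfdh (313 CPM against 197 to 233 CPM in the others) and in Acot2 (71.9 CPM against 37.9 to 51.8 CPM). It also had the highest sum of mitochondrial members (6864 CPM), of brown and beige markers (2988 CPM, against 1094 and 1211 CPM in the other pLPD mice) and the highest Ppara (81.7 CPM). Without it, none of the 39 genes passed the test in F1, 7 were lower and 1 was higher at an unadjusted p under 0.05, beside 7.56% and 5.54% of all genes, and the median of the mitochondrial genes was -0.07. The share of intron reads was higher in all 3 pLPD libraries than in the CD offspring. It was highest in pLPD mouse 1, at 48.4% against 41.8% and 40.7% in the other 2, and the library of this mouse had the fewest exon reads, 6351075. With the share of exon reads as a covariate no gene of the 39 passed either. In that fit 13 were lower and 1 was higher at an unadjusted p under 0.05 in edgeR, beside 4.44% and 4.16% of all genes.

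Of the neighbouring lists in F1, Ppargc1a, a coactivator of PPARα, rose from 18.9, 16.2 and 16.5 CPM in CD offspring to 46.8, 27.4 and 32.8 CPM in pLPD offspring (log2 fold change 1.05 ± 0.18, adjusted p = 0.0260, edgeR). Acsl5, an acyl-CoA synthetase, fell from 186, 190 and 205 CPM to 127, 87.8 and 80.5 CPM (log2 fold change -0.98 ± 0.14, adjusted p = 0.0118, edgeR). For both genes the groups did not overlap. No gene of the carnitine shuttle, the peroxins, the further peroxisomal enzymes, the tricarboxylic acid cycle or the respiratory chain passed the test in edgeR. At an unadjusted p under 0.05, 3 of 15 peroxins and 3 of 11 further peroxisomal enzymes were lower, beside 8.76% of all genes. Only 1 peroxin was higher, beside 6.57%. No brown and beige marker passed, and 3 of 11 were lower at an unadjusted p under 0.05, beside the same 8.76%. Skeletal muscle markers summed to 53.8 to 222 CPM over the 6 mice. Of 10 macrophage markers 6 fell, beside 1.02% of all genes. The sum of the 10 was 1229 to 1533 CPM in CD offspring and 838 to 1009 CPM in pLPD offspring.

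The difference between the diet effects of the generations was tested as an interaction in a fit of all 10 libraries. By edgeR, 1.25% of 15111 genes passed in either direction, and of the 39 genes 1 did, Hsd17b4. Its effect was lower in F1 than in F0 by -0.82 ± 0.13 on the log2 scale (adjusted p = 0.0122, edgeR), with every LPD mouse above the CD mice in F0 and every pLPD mouse below the CD offspring in F1. At an unadjusted p under 0.05, the effect was lower in F1 for 18 genes, 12 of them mitochondrial, beside 7.58% of all genes, and higher for 1, Hsd17b10, beside 4.91%. Acadm (-0.61 ± 0.14, adjusted p = 0.0510, edgeR), Hadha (-0.96 ± 0.22, adjusted p = 0.0534, edgeR) and Hadhb (-1.02 ± 0.25, adjusted p = 0.0669, edgeR) lay just outside the threshold. The count depended on the fit: DESeq2 called 9 genes, no gene was called without F0 CD mouse 2 or without F0 LPD mouse 2, 2 were called without F0 CD mouse 1 or without F1 CD mouse 3, and 10 without pLPD mouse 1.

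The generations also differed on the CD alone, which is given as levels with no test because age and library set changed with them. With all libraries normalized together, every F1 CD mouse was above every F0 CD mouse in 26 of the 39 genes, beside 25.2% of all genes, and below in 2, Acadsb and Abcd2, beside 24.7%. The median ratio of F1 to F0 was 1.62 for the mitochondrial and 1.23 for the peroxisomal genes, beside 1.01 for all genes. Acadvl was 2.82 times as high in F1, Acaa2 2.37 times and Hadha 2.15 times, whereas Ehhadh was at 0.997 and Abcd2 at 0.635 of the F0 level. The mitochondrial members summed to 5890 to 6319 CPM in F1 CD mice, above both F0 LPD mice. Brown and beige markers were at 1633 to 2294 CPM in the F1 CD mice and at 263 and 460 CPM in the F0 CD mice. Other lists differed too. In the same order, the tricarboxylic acid cycle was at 6689 to 7314 against 4165 and 4441 CPM, and the respiratory chain at 7345 to 8201 against 5260 and 5295 CPM. Progenitor markers were at 14224 to 23730 against 3482 and 4327 CPM. Lower in F1 were muscle markers (118 to 222 against 1896 and 2946 CPM) and white adipocyte markers (28010 to 31501 against 39651 and 44072 CPM).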

How the data were processed

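Total RNA of iWAT was depleted of rRNA, made into directional libraries and sequenced in pairs. In CLC Genomics Workbench, with mm10 as the genome, the authors counted reads and deposited, per mouse and gene, whole-number counts of exon, intron and uniquely matching reads without normalization, RPKM values made from the exon counts, and TPM values, which were not used here. Groups come from the sample labels.

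Each generation was fitted alone on the deposited total exon counts with edgeR 4.0.16 in R 4.3.3 (filterByExpr, TMM, quasi-likelihood F test, two-sided, Benjamini-Hochberg adjustment over all genes tested, threshold 0.05), and the generation-by-diet term was tested over all 10 libraries at once. The standard error is the log2 fold change divided by the square root of F. The p-values rest on the spread between these mice, which edgeR estimates for each gene with help from the other genes tested. In F1 that spread is between sons, not between the fathers that were given the diet. For 1 gene, the smallest exact permutation p was 0.333 in F0 and 0.1 in F1. Depth was 6351075 to 10044546 exon reads.

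Per-mouse values were given for members past the threshold and for Hadha, Acaa2 and Acadvl, which the study names, and the rest by ranges. Members singled out for other reasons, and called genes of lists with 5 or fewer calls, were chosen after their values were seen. The members and the lists were chosen with earlier results of these data known. From the neighbouring lists, the 8 genes with the smallest p past the threshold were to be named, and these are Myh7, Myh1, Fabp3, Myh2, Myl2, Slc25a20, Mb and Acsl5. The other lists held markers of lymphocytes (1 of 11 rose in F0, Ms4a1), of endothelium (0 of 7 by edgeR, 1 higher and 1 lower in F0 at an unadjusted p under 0.05, beside 7.53% and 8.20% of all genes), of adipose progenitors (1 of 8 fell in F0, Dcn), of macrophages (1 of 10 fell in F0, Cd163) and of white adipocytes (1 of 12 fell in F0, Retn). In F1 only the macrophage list among these had calls by edgeR. At an unadjusted p under 0.05 in F1, 7 of 8 progenitor and 3 of 7 endothelial markers were lower, beside 8.76% of all genes. Of the lymphocyte markers 5 of 11 were higher, beside 6.57%. Itgam was not analysed here, and 1 further list of enzymes is not reported here. Promoter windows and their starts came from RefSeq GRCm38.p6, whereas the gap between Hadha and Hadhb was set by the gene coordinates in the deposited files. Pairs of mice of a group differed 4.59 to 13.1 times more than counting error, so none was counted as a duplicate. The scripts were tested on simulated counts. Alternatives were DESeq2 1.42.0, its size factors in edgeR, no filter, at least 10 reads in every sample, one fit of all groups, the replicate number as a block, uniquely matching reads, all reads on the gene, limma-trend (limma 3.58.1) on log2(RPKM + 0.1), the exon share as a covariate, and each mouse left out.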

Additional observations from a re-analysis of the deposited data

Results flagged for a closer look

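The effect of the LPD on Hsd17b4, the peroxisomal D-bifunctional protein, differed between the generations by -0.82 ± 0.13 on the log2 scale (adjusted p = 0.0122, interaction test of edgeR). It was 0.62 ± 0.11 in F0 LPD mice and -0.19 ± 0.08 in pLPD offspring, and the second value did not pass its own test. The interaction was past the threshold in 9 of 9 alternatives and in 8 of 10 fits that left out a mouse, where it lay between -0.95 and -0.69. Generation, age and library set cannot be told apart in it.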

How the results depend on the processing

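No call turned direction under any alternative. In F0, the number of members that rose was 10, and it was 16 with no filter on low counts, 6 with all 4 groups in one fit, 0 with limma-trend (where 17 were higher and 0 lower at an unadjusted p under 0.05) and 2 to 8 with each mouse left out. The number that fell was 0, and it was 1 (Hsd17b10) with no filter and 0 to 1 with each mouse left out. The mitochondrial median ranged from 0.33 to 0.44 with each mouse left out. The peroxisomal median was 0.145 with uniquely matching reads, 0.0961 with all reads on the gene, 0.115 with limma-trend and 0.0967 to 0.205 with each mouse left out. In F1, the numbers that rose and fell were 0, and with no filter 1 each, Ehhadh and Acaa1b. With limma-trend, the F1 mitochondrial median was -0.163 and the peroxisomal median -0.172. Limma-trend also moved the median of all genes to -0.15, so that relative to it these medians were -0.02 and -0.03. With the exon share as a covariate, the F1 mitochondrial median was -0.149, whereas the median of all genes was 0.02. Relative to the latter, the mitochondrial median was -0.17 and the peroxisomal median -0.10. In the interaction, where 1 member was called, the number was 9 with DESeq2, 15 with no filter, 3 with at least 10 reads in every sample, 4 each with uniquely matching reads, all reads on the gene and limma-trend, 11 with the exon share and 0 to 10 with each mouse left out. Among the 39 members, 6 in F0, 19 in F1 and 9 in the interaction had another sign in at least 1 alternative. The cause was not tested.

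The mice were not treated as paired by replicate number. Deviations of mice with the same number correlated at 0.0564 in F0 and at 0.0736, 0.00903 and 0.0149 in F1. Those of mice with different numbers correlated at -0.0564 in F0 and between -0.0815 and 0.0658 in F1. With 2 mice per group in F0, the deviations within a group mirror each other, so this check cannot decide there whether the mice were paired. With the number as a replicate block, 17 members rose and 1 fell in F0, where the block leaves little spread to test against, and 8 were called in the interaction. A fit without a mouse used the remaining libraries of its generation alone (all other libraries for the interaction), so in F0 a lone mouse was assumed to vary like the pair of the other diet, and the spread came from that pair. With 2 or 3 mice per group, a change of the size of Acadvl in F0 could fall on either side of the threshold, and Acot1, at 6 to 29 reads, was too shallow for a comparison.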
